A study of Mus musculus with 3 samples.

Results

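Uterine gland spots were defined here as the Visium spots with much RNA of the implantation serine proteinases Prss28 and Prss29 and with smooth muscle RNA under a ceiling. They numbered 211 of the 3939 spots kept, which were those of 3978 deposited spots with at least 1000 unique molecular identifiers (UMIs). A spot was a member when Prss28 and Prss29 together reached 1000 CPM (UMIs of a gene as a share of all UMIs of the spot, on the usual CPM scale) with at least 5 UMIs of the pair, and when Acta2, Actg2, Tagln, Myh11 and Cnn1 together stayed under 20000 CPM. A strict core of 36 members reached 20000 CPM of the proteases, and the remaining 175 are called the lower-protease gland spots. The spots were thus chosen by the measured UMIs of these 7 genes, whose levels are described without a test. The series held 1 group of 3 libraries, made from frozen uterine sections of mice at pregnancy day 7.5, from females on normal chow that were 8 weeks old before mating with stud males. The sources used here give neither strain nor genotype, and all libraries share the same condition. The library of replicates 1 and 2 mixes 2 biological replicates in 1 matrix and counted as 1, so n is at most 3 libraries. A spot covers a small area that can hold several cells, so fewer cells of a type and less RNA per cell cannot be told apart.

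Uterine glands are tubes of epithelium that reach from the uterine lumen into the stroma, and their secretions are required for implantation and early pregnancy in mice. Their epithelium is known for the transcription factor FOXA2, for keratins and the adhesion molecule EPCAM, and for secreting proteases, protease inhibitors and antimicrobial proteins. Prss28 and Prss29 encode secreted tryptase-like serine proteases that were named implantation serine proteinases and that are made by the glands. After implantation the decidua fills most of the implantation site, and glands remain in the undecidualized stroma towards the muscle.

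Gland spots were a small share of each library. In the library of replicates 1 and 2, 105 of 1773 kept spots were gland spots (5.92%, with an exact Clopper-Pearson 95% interval of 4.87 to 7.12). Replicate 3 had 33 of 1080 (3.06%, 2.11 to 4.26) and replicate 4 had 73 of 1086 (6.72%, 5.31 to 8.38). The intervals cover counting error only, and the share in replicate 3 lay below the intervals of the other libraries. The strict core held 21, 5 and 10 spots in the same order. A further 15, 3 and 10 spots met the protease condition but exceeded the muscle ceiling and were left outside. Libraries held 16915926 to 29953072 UMIs. Between 676 and 825 spot barcodes were shared by any 2 libraries, as slides share a barcode set, and at most 2 of them were members in both.

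In each library, gland spots were shallower than the other kept spots. Their median depth was 4404, 10056 and 9063 UMIs in the libraries of replicates 1 and 2, 3 and 4, against 8640, 26984 and 29063 UMIs in the other kept spots. Just inside the protease threshold, the lowest members had 1121, 1019 and 1058 CPM, and just outside it the highest spots with enough UMIs had 946, 828 and 939 CPM. At the muscle ceiling, the highest members had 18731, 15314 and 19988 CPM of the 5 muscle genes, and the lowest protease spots above it had 20548, 21518 and 20322 CPM. Gland spots had medians of 4505, 1556 and 10163 CPM of the 5 muscle genes, against 122, 99.2 and 81.4 CPM in other kept spots. In replicate 3 no protease spot lay between 15314 and 21518 CPM of the muscle genes, while in replicate 4 members and excluded spots lay close to the ceiling on both sides. In 9, 1 and 0 further spots the pair reached 1000 CPM with fewer than 5 UMIs.

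**Figure D1:**
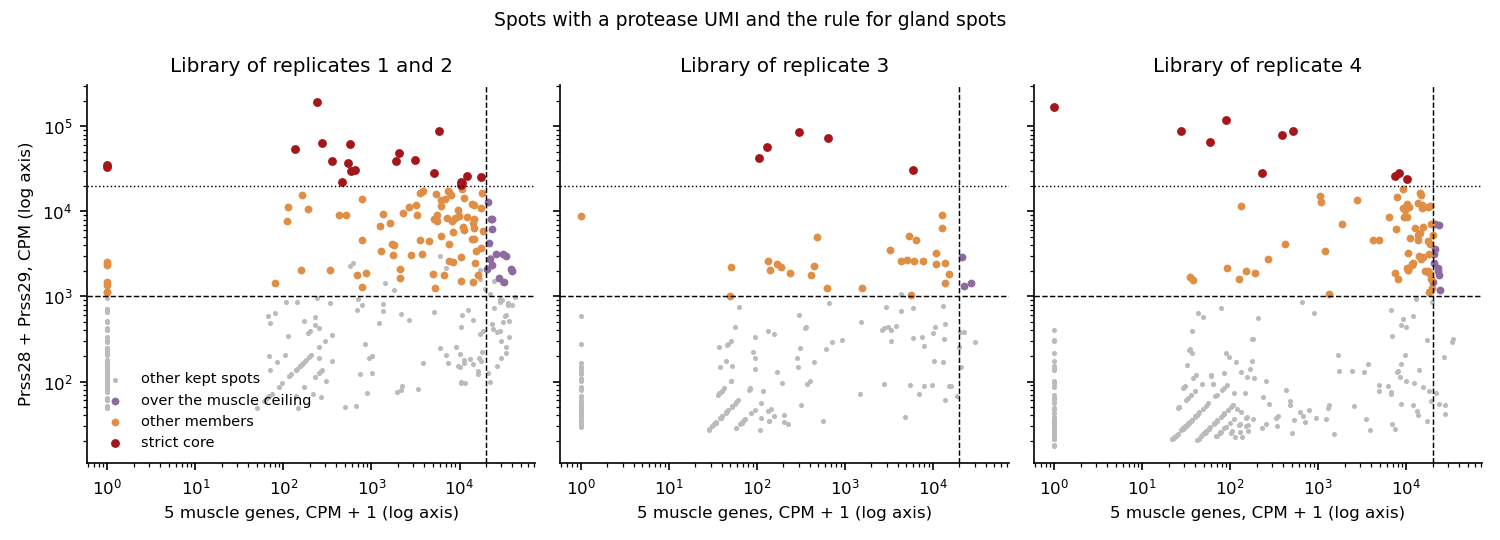
Each point is a kept spot with at least 1 protease UMI, with the summed CPM of the 5 muscle genes plus 1 on the x axis and the summed CPM of Prss28 and Prss29 on the y axis, both logarithmic, for each library. Dashed lines are the limits of the rule at 1000 and 20000 CPM and the dotted line is the core limit at 20000 CPM. The core spots lie mostly at low muscle CPM, while many lower-protease members lie close to the muscle ceiling.

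The proteases were concentrated in few spots. Gland spots held 93.1%, 90.6% and 93.9% of all Prss28 and Prss29 UMIs of the kept spots in the libraries of replicates 1 and 2, 3 and 4. The strict core alone held 66.7%, 68.5% and 67.1%, and the 5 richest spots held 44.1%, 68.5% and 55.1%. The median gland spot had 8278, 2586 and 5241 CPM of the pair, and the richest had 194254, 85660 and 170587 CPM. Outside the members, 13.2%, 15.7% and 25.8% of kept spots held at least 1 protease UMI, at the depths given above.

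Both proteases were present in every gland spot. In the summed gland spots, Prss28 took 30.2% of the pair's UMIs in the library of replicates 1 and 2, 22.1% in replicate 3 and 25% in replicate 4. Among the 60, 22 and 58 gland spots with at least 20 UMIs of the pair, the share of Prss28 ranged from 14.3% to 52.2%, 11.4% to 38.5% and 13.7% to 44.4%. The core had nearly the same share as the lower-protease gland spots within each library, at 30.4% against 29.6%, 21.2% against 25% and 24.9% against 25.3%. Capture can differ between the genes, so the share is not a ratio of transcripts.

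The genes lie in tandem on chromosome 17, both on the plus strand, with Prss28 at chr17:25308646-25311876 and Prss29 at chr17:25318654-25322684 (GENCODE M21, GRCm38) and 6777 bases between them. No run of 50 bases was shared between their annotated transcripts and the longest shared run was 27 bases. Since the pair was abundant in the same spots, the 250 bases upstream of each start are shown from RefSeq (GRCm38.p6, plus strand, chr17:25308396-25308645 and chr17:25318404-25318653). Capitals mark runs of at least 10 bases that both hold.
Prss28: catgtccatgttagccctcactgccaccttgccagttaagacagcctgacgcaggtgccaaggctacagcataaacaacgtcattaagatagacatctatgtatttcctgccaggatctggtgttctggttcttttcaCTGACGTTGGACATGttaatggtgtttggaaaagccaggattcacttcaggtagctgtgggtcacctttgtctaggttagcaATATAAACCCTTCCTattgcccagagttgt
Prss29: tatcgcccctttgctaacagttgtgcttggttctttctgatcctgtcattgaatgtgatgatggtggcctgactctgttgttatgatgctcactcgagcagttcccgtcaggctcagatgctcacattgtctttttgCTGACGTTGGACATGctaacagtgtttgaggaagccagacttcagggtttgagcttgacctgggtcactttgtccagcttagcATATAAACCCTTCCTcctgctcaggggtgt

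Each upstream window held 2 shared runs of 15 bases at almost the same place. CTGACGTTGGACATG began 112 bases before the Prss28 start and 113 before the Prss29 start, and ATATAAACCCTTCCT began 30 bases before both. Of 32851 promoter windows of 250 bases in the table, 2 held the first run and 2 held the second, which are these 2 genes. The second run overlaps the TATA box letters TATAAA, which began 29 bases before each start and which 12.4% of all windows hold on either strand. The letters TGTTCT, bound by steroid receptors, matched only in the Prss28 window (16.1% of all windows). TGTTTAC and TGTTTGC, letters bound by FOXA factors, and TTCNNNGAA, the STAT motif, matched in neither window, where 3.17%, 4.3% and 7.02% of all windows hold them on either strand. A match or its absence describes these letters in these windows only.

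The other genes were tested on UMIs summed per library over the gland spots and over all other kept spots, with edgeR's quasi-likelihood test and the library as a block. CPM below are per UMIs outside the 7 rule genes, values in brackets after ± are standard errors of the log2 fold change, and a gene was called when its adjusted p was under 0.05 and its log2 fold change was 1 or more in either direction. Of 13327 genes tested, 1188 were higher in gland spots (8.91%) and 858 were lower (6.44%), and without replicate 4 these counts were 653 and 520. The p-values measure the spread between these 3 libraries. Because gland spots were shallow, they were also set against other kept spots whose UMI total lay between the lower and upper quartile of the gland spots of their library, an alternative chosen after seeing the data. Against these 473, 91 and 46 depth-matched spots, 91 of 7446 genes were higher (1.22%) and 47 were lower (0.631%). The depth-matched spots had medians of 561, 7482 and 6287 CPM of the 5 muscle genes, against 122, 99.2 and 81.4 CPM in all other kept spots. The part of depth, of tissue and of the number of reference spots in the smaller counts was not tested. Values against this reference are given below beside many of the results.

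The epithelial markers separated the strict core from the other members. Epcam, the epithelial adhesion molecule, had 27.0, 85.1 and 36.1 CPM in gland spots of the libraries of replicates 1 and 2, 3 and 4 and 5.64, 11.6 and 13.8 CPM in the other kept spots. It was higher in gland spots in all 3 libraries without overlap (log2 fold change 2.14 ± 0.28, edgeR adjusted p = 1.6e-05). Krt18, a keratin of simple epithelia, had 94.5, 139.9 and 116 CPM in gland spots and 54.6, 63.7 and 128 CPM elsewhere. These values overlapped, and Krt18 was not called (0.55 ± 0.19, edgeR adjusted p = 0.042). It was called against the depth-matched spots (1.64, edgeR adjusted p = 0.0047).

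Without the core, an alternative also chosen after seeing the data, Krt18 was lower in the remaining gland spots than in the other kept spots (log2 fold change -1.18, edgeR adjusted p = 1.4e-04), where 7.28% of genes were higher and 5.86% lower. Epcam was then not called (0.94, edgeR adjusted p = 0.08). Within the core Krt18 rose to 329 and 565 CPM in the libraries of replicates 1 and 2 and of replicate 4, against 27.3 and 39.4 CPM in the lower-protease gland spots. Its 5 core spots in replicate 3 had 704 CPM. The label of gland epithelium thus held for the core by these markers, while the lower-protease gland spots met the protease rule with less Krt18 than the other kept spots and with no call for Epcam. Elsewhere in the sections Krt18 also came from spots with no protease UMI, at 60.7, 58.6 and 141 CPM.

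Foxa2, the transcription factor needed for gland development, was rare. Gland spots held 7 UMIs of it, or 1.93, 2.74 and 6.02 CPM, against 0.245, 0.0372 and 0.275 CPM in the other kept spots. It was higher without overlap (4.26 ± 0.85, edgeR adjusted p = 9.6e-04). All of these UMIs lay in the core, in 1 of 21, 1 of 5 and 5 of 10 spots. None of the 175 lower-protease gland spots held one, which allows a share of up to 1.71% of spots with a UMI, by counting error only. Foxa2 had too few counts to be tested against the depth-matched spots.

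**Figure D2:**
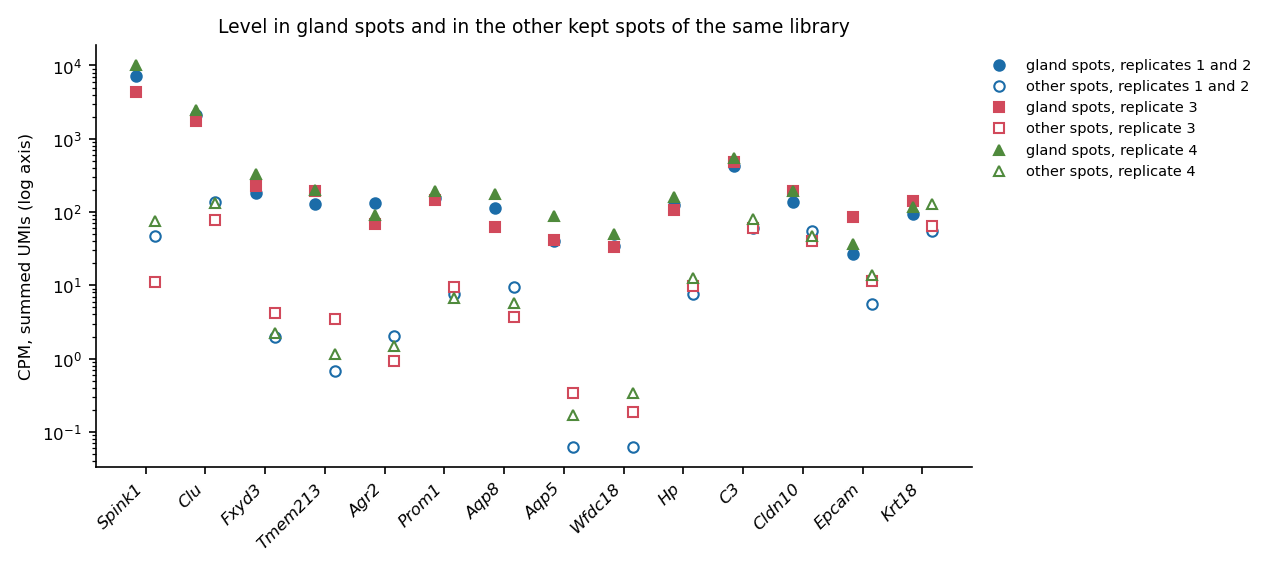
CPM on a logarithmic axis of 14 genes in gland spots (filled) and in the other kept spots (open) of each library, from UMIs summed per library. All of these genes except Krt18 have higher values in the gland spots of every library than in any of the other sums.

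Protease inhibitors rose with the proteases. Spink1, a secreted trypsin inhibitor, had 7246, 4297 and 10271 CPM in gland spots of the libraries of replicates 1 and 2, 3 and 4 and 47.4, 11.2 and 75.8 CPM in the other kept spots. It had the largest rise of the 20 genes taken by size, which needed a mean log2 CPM of at least 3 (7.64 ± 0.25, edgeR adjusted p = 2.4e-13), in all 3 libraries without overlap, and it was also called against the depth-matched spots (6.20). Wfdc18, a small secreted protein with a whey acidic protein domain, had 34.7, 32.9 and 50.5 CPM in gland spots and 0.0613, 0.186 and 0.344 CPM elsewhere (7.53 ± 0.45). Wfdc15b, of the same domain family, had 25.1, 35.7 and 21.7 CPM against 0.245, 0.149 and 0.138 CPM (7.27 ± 0.47). Neither gene overlapped between the groups. Spint2, a membrane-bound inhibitor of serine proteases, had 98.4, 107 and 138 CPM against 13.4, 25.3 and 22.4 CPM (2.57 ± 0.18). Among 16 tested genes of the membrane proteases and inhibitors list, 11 were higher (8.91% of all genes) and none was lower (6.44%). The median log2 fold change was 1.74, against -0.062 for all genes. The called members were Spink1, Wfdc18, Wfdc15b, Wfdc2, Wfdc3, Spint1, Spint2 and Cst3 among the inhibitors and Tmprss4, Tmprss2 and Prss8 among the membrane proteases. Of these, 4 of 10 tested were called against the depth-matched spots, which were Spink1, Wfdc15b, Wfdc18 and Spint2.

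No other tryptase-like gene of the same chromosome region was called higher, though most had too few counts for a test. Of the 10 genes on the list of cluster neighbours, only the mast cell tryptases Tpsab1 and Tpsb2 had enough counts for a test, and neither was called. The summed list had 1.93, 0 and 20.5 CPM in gland spots and 22.2, 4.43 and 29.2 CPM in the other kept spots.

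Spink1 did not mark the same spots everywhere. At least 1000 CPM of Spink1 was found in 89, 19 and 79 kept spots of the libraries of replicates 1 and 2, 3 and 4, of which 70, 18 and 62 were gland spots and 7, 0 and 5 were protease spots over the muscle ceiling. The other 12, 1 and 12 spots had 1132, 0 and 1563 CPM of the yolk sac genes Afp and Apoa1 together, against 3.77, 0 and 0 CPM in gland spots. Of these 12 spots, 8 had no protease UMI, both for replicates 1 and 2 and for replicate 4. Conversely, 35, 15 and 11 gland spots were under 1000 CPM of Spink1.

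Clu, Agr2, Prom1, Tmem213 and Hp were also among the 20 largest rises. Clu, a secreted chaperone, had 2141, 1775 and 2476 CPM in gland spots and 137, 78.4 and 131 CPM elsewhere (4.27 ± 0.15, edgeR adjusted p = 2.7e-13). Agr2, a disulfide isomerase of the endoplasmic reticulum of secretory epithelia, had 135, 68.6 and 90.3 CPM against 2.02, 0.93 and 1.51 CPM (6.06 ± 0.23). Prom1, a protein of apical membrane protrusions, had 154, 145 and 194 CPM against 7.66, 9.41 and 6.68 CPM (4.45 ± 0.18). Gland spots were higher in each library and the groups did not overlap for any of the 3 genes, and all 3 were called against the depth-matched spots (3.36, 4.37 and 4.18). Tmem213 had 127, 192 and 199.8 CPM against 0.674, 3.5 and 1.17 CPM (6.74 ± 0.27), and Hp, the hemoglobin-binding plasma protein haptoglobin, had 123, 107 and 160.1 CPM against 7.6, 9.79 and 12.4 CPM (3.76 ± 0.17). They too were called against the depth-matched spots (4.31 and 4.14).

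Transport genes were few but large in their change. Fxyd3, a regulator of the sodium pump, had 183, 228 and 329.8 CPM in gland spots and 1.96, 4.13 and 2.24 CPM elsewhere (6.55 ± 0.22). The water channel gene Aqp5 had 40.5, 41.2 and 87.9 CPM against 0.0613, 0.335 and 0.172 CPM (8.15 ± 0.48), and the water channel gene Aqp8 had 112, 63.1 and 176 CPM against 9.44, 3.68 and 5.71 CPM (4.32 ± 0.24). Car12, a membrane carbonic anhydrase, had 63.6, 43.9 and 69.8 CPM against 0.735, 1.82 and 0.998 CPM (5.72 ± 0.39). None of the 4 genes overlapped between groups, and each was called against the depth-matched spots too (4.40, 4.83, 3.46 and 5.54). On the ion and water transport list 5 of 18 tested genes were higher (8.91% of all genes) and 1, Car2, was lower (6.44%). The sodium channel subunits Scnn1a, Scnn1b and Scnn1g were among the 12 not called. Against the depth-matched spots 5 of 11 were higher, with Atp1b1, the beta subunit of the sodium pump, in place of Slc4a4.

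Genes linked to gland identity rose as a group. On the list of gland genes outside the rule, 12 of 15 tested genes were higher and 1 was lower, with a median log2 fold change of 2.57. The shares over all genes were 8.91% higher and 6.44% lower. Sult1d1, a sulfotransferase, had 27.0, 27.4 and 31.3 CPM in gland spots and 0.306, 0.633 and 0.138 CPM elsewhere (6.45 ± 0.48). Cldn10, a tight junction protein, had 137, 192 and 193 CPM against 54.8, 40.2 and 46.5 CPM (1.92 ± 0.16). Both were higher in each library without overlap, and both were called against the depth-matched spots (4.34 and 2.19), with Spink1 as the only other gene called of 5 tested there. The mucin Muc1 had 17.4, 8.23 and 15.6 CPM against 0.49, 1.38 and 0.929 CPM (4.00 ± 0.53), and lactoferrin, Ltf, had 7.71, 19.2 and 8.42 CPM against 0.123, 1.3 and 0.103 CPM (4.82 ± 0.64). Pax8, a transcription factor of the female tract epithelium, rested on 15 UMIs in gland spots (2.83 ± 0.55), Wfdc3 on 19 (1.74 ± 0.48), Aldh1a1 on 16 (2.57 ± 0.63) and Calb2 on 8 (2.47 ± 0.72). Aldh1a1 and Calb2 overlapped between the groups. Without replicate 4, Wfdc3 (1.69, edgeR adjusted p = 0.13) and Aldh1a1 (1.34, edgeR adjusted p = 0.45) were not called.

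Complement C3 and lipocalin differed from the rest of that list. C3 had 419, 486 and 543 CPM in gland spots and 61.1, 60.9 and 79.3 CPM elsewhere (2.88 ± 0.13, edgeR adjusted p = 1.2e-11), without overlap. C3 was not called against the depth-matched spots (0.81, edgeR adjusted p = 0.15). Lcn2, the antimicrobial lipocalin, had 1.93, 184 and 2.41 CPM in gland spots and 2.82, 36.5 and 8.78 CPM elsewhere, so it was higher only in replicate 3. Its call (1.44 ± 0.42, edgeR adjusted p = 0.015) turned into -1.49 (edgeR adjusted p = 0.19) without that library. Sox17 (0.20 ± 0.27) and Il17rb (-1.02 ± 0.53) were not called. Ttr, which the yolk sac also expresses, was lower with 1 UMI in gland spots and 1008 elsewhere, a ratio of 23.9 with an exact Poisson interval of 4.29 to 944. Lif, Cxcl15, Fxyd4, Dcpp1, Dcpp2, Dcpp3, Pla2g10, Lgr5 and Foxa1 had too few counts to be tested.

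Epithelial transcription factors followed with low counts. On the list of epithelial regulators 7 of 14 tested genes were higher (8.91% of all genes) and none was lower (6.44%). Sox9, a transcription factor of gland and duct epithelia, had 11.6, 5.49 and 12.0 CPM in gland spots and 0, 0.298 and 0.207 CPM elsewhere (5.78 ± 0.72, edgeR adjusted p = 7.3e-06). Ehf (4.05 ± 0.69) rested on 10 UMIs in gland spots. Neither gene overlapped between the groups, and neither had enough counts for the test against the depth-matched spots. On the keratins and adhesion list 4 of 17 tested genes were higher (8.91% of all genes), which were Cxadr, Cldn7, Epcam and Krt7. Cxadr was not called without replicate 4 (2.49, edgeR adjusted p = 0.072). Krt19 was lower (-1.19 ± 0.22), at 9.64, 27.4 and 36.1 CPM against 29.8, 79.4 and 69.3 CPM, with overlap between the groups. With the depth-matched spots as reference, 3 of 9 keratins and adhesion genes were higher (Krt7, Krt18 and Epcam) and none of 3 regulators was called.

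Mucosal defence genes were higher, and hormone and cytokine pathways mostly were not. Pigr, the receptor that carries antibodies across epithelia, had 61.7, 63.1 and 28.9 CPM in gland spots and 0, 1.41 and 0.207 CPM elsewhere (6.76 ± 0.55). It was called against the depth-matched spots as well (3.75). Of 9 tested genes on the mucosal defence list 7 were higher (8.91% of all genes), and against the depth-matched spots 1 of 5 was (1.22%). On the LIF and STAT3 list only Cish, a feedback inhibitor of cytokine signalling, was called higher of 10 tested genes (1.61 ± 0.31). Cish was not called against the depth-matched spots (1.24, edgeR adjusted p = 0.18). On the progesterone and estrogen list Ltf and C3 were higher, and 2 of 15 tested genes were lower (Bmp2 and Hand2). No gene of that list was called against the depth-matched spots, where Bmp2 had -0.43 and Hand2 0.12. Pgr and Esr1, the hormone receptors themselves, were not called.

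Most tested genes of the general machinery of secretion did not follow Agr2. On the secretory pathway list 4 of 19 tested genes were higher (Agr2, Creb3l4, Tmed3 and Creb3l1) and Manf was lower. Over all genes 8.91% were higher and 6.44% lower. The median log2 fold change of the list was -0.21, against -0.062 for all genes. Manf fell short of the minimum without replicate 4 (-0.98). Hspa5, the main chaperone of the endoplasmic reticulum, had 318, 272 and 336 CPM in gland spots and 671, 563 and 655 CPM elsewhere, without overlap, and its log2 fold change of -1.0 ± 0.13 lay just under the minimum, which it passed without replicate 4 (-1.04). Against the depth-matched spots Agr2 was the only gene of 18 called, where 1.22% of all genes were higher.

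The other genes with the largest rises were not on the epithelial lists. Nppa, which encodes atrial natriuretic peptide, had 258, 156 and 191 CPM in gland spots and 10.4, 3.91 and 6.75 CPM elsewhere (4.92 ± 0.16). Wfikkn2, a secreted binder of growth differentiation factors, had 197, 162 and 166 CPM against 10.2, 5.84 and 5.33 CPM (4.71 ± 0.17). Both kept their size without the core (4.99 and 4.74) and were called against the depth-matched spots with smaller changes (2.36 and 2.11). The fast troponin gene Tnni2 (4.35 ± 0.23), Fibin (3.68 ± 0.26), the thrombospondin gene Thbs4 (3.40 ± 0.16), the BMP antagonist noggin, Nog (3.39 ± 0.28), the retinol carrier Rbp4 (3.29 ± 0.23), AW551984 (3.28 ± 0.24) and Fxyd6 (3.14 ± 0.15) were higher without overlap, also against the depth-matched spots (1.24 to 2.21). Mfap4, a microfibril protein (3.32 ± 0.13), the lymphatic chemokine gene Ccl21a (3.19 ± 0.27) and Clec3b, which encodes tetranectin (3.14 ± 0.28), were not called against the depth-matched spots (0.93, 0.19 and 0.06). Ccl21a stands on 2 rows of the files, so near-identical copies may share its reads.

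Many genes on the lists of the decidua, its natural killer cells and the conceptus were lower in gland spots. Among the largest falls, Chl1, Trap1a, Ifnk, Necab2, Cenpi and Ctsg, which are on none of these lists, had no UMI in gland spots. Against a floor of 3 counts over all gland spots they were at least 9.95-fold, 9.14-fold, 6.98-fold, 8.52-fold, 5.24-fold and 5.89-fold lower. The granzyme genes Gzmg and Gzmd, cytotoxic proteases of uterine natural killer cells, had 0, 8.23 and 2.41 CPM and 1.93, 16.5 and 7.22 CPM in gland spots, against 173, 1268 and 489 CPM and 323, 1941 and 847 CPM elsewhere. Both were lower without overlap (-7.56 ± 0.27 and -6.90 ± 0.22) and were called against the depth-matched spots (-7.20 and -6.65). The granzyme genes are close copies, so their reads may be divided between them.

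By list, 12 of 16 tested natural killer cell genes, 8 of 10 trophoblast genes, 9 of 20 decidua genes and 14 of 15 proliferation genes were lower. Over all genes 6.44% were lower. The natural killer cell list had 2 genes higher, Klra4 and Ccl5. The decidua list also had 1 gene higher, Igfbp3, a binding protein of insulin-like growth factors, with 1041, 1043 and 710.1 CPM in gland spots and 255, 169 and 266 CPM elsewhere (2.05 ± 0.17), without overlap. With the depth-matched spots as reference these counts were 6 of 8, none of 2, 1 of 19 (Angpt4) and 7 of 14, and 2 of the 19 decidua genes were higher (Mt3 and Igfbp3). Rrm2, a subunit of ribonucleotide reductase, was lower against all other spots (-1.29 ± 0.15) but not against the depth-matched spots (0.21, edgeR adjusted p = 0.83). The crystallin gene Cryab behaved likewise (-1.72 ± 0.14 and 0.06).

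**Figure D3:**
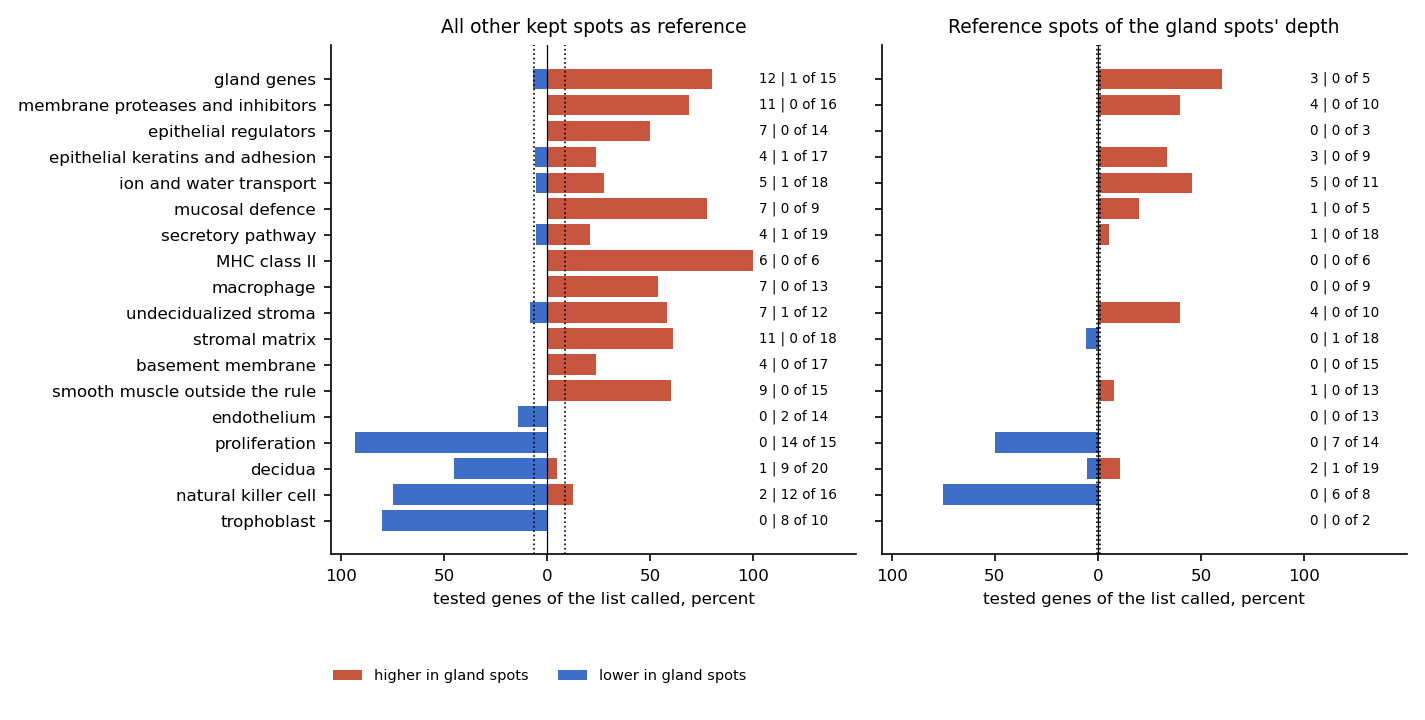
Bars give the percent of tested genes of each list called higher (right of 0) or lower (left of 0) in gland spots, against all other kept spots (left panel) and against the depth-matched spots (right panel), with the counts higher and lower of those tested beside them. Dotted lines are the shares over all genes tested, 8.91% and 6.44% on the left and 1.22% and 0.631% on the right. For higher genes, the gland, inhibitor, keratin, transport, mucosal defence, secretory pathway, undecidualized stroma and smooth muscle lists exceed the dotted line in both panels. Of these, the mucosal defence, secretory pathway and smooth muscle lists do so by 1 gene on the right. The regulator, MHC class II, macrophage, stromal matrix, basement membrane and natural killer cell lists exceed it only on the left. The decidua list exceeds it only on the right.

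Many stroma, muscle, macrophage and MHC class II genes were higher in gland spots against all other spots, where 8.91% of all genes were. On the stromal matrix list 11 of 18 genes were higher, on the undecidualized stroma list 7 of 12, on the list of smooth muscle genes outside the rule 9 of 15, on the macrophage list 7 of 13 and on the MHC class II list 6 of 6. Other immune lists differed. The T cell list had 2 of 3 tested genes lower (Trbc1 and Trbc2) and none higher. The B and plasma cell list had 2 of 4 higher (Igha and Ighm), though Igha was not higher in replicate 4. The summed smooth muscle list had 8338, 6297 and 10283 CPM in gland spots and 4950, 3131 and 3637 CPM elsewhere, a level that the ceiling of the rule limits. H2-Aa, an MHC class II chain, had 158, 109.7 and 122 CPM against 25.2, 26.6 and 23.7 CPM (2.41 ± 0.16). Col1a1, the main fibrillar collagen chain, had 2793, 2307 and 3228 CPM against 784, 599 and 753 CPM (1.99 ± 0.13). Neither overlapped between groups. Against the depth-matched spots no MHC class II, macrophage or stromal matrix gene was called higher, with H2-Aa at 0.86 (edgeR adjusted p = 0.096) and Col1a1 at 0.33 (edgeR adjusted p = 0.56). The undecidualized stroma list had 4 of 10 genes higher there (Hsd11b2, Igf1, Sfrp4 and Rbp4). Of the smooth muscle genes only Itga8 was called there, and Smtn had -0.31 (edgeR adjusted p = 0.56) where it had been 1.84 ± 0.19.

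Gland spots were also compared with stroma. Undecidualized stroma spots were the other kept spots in the top 10% of their library for Sfrp4 and Rbp4 and under the muscle ceiling (166, 105 and 102 spots, with medians of 614, 280.1 and 375 CPM of the 5 muscle genes against 4505, 1556 and 10163 CPM in gland spots), and these 2 genes were also left out of the fit. Of 8588 genes tested, 389 were higher in gland spots (4.53%) and 97 were lower (1.13%). Without replicate 4, 248 were higher, and with no replicate block 40 were lower. The 10 largest rises belonged to Spaca7, Krt83, Wfdc18, Agr2, Gpx2, Car12, Spink1, Krt23, Aqp5 and Wfdc15b.

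Several of these were all but missing from the stroma spots. Spaca7, a gene known from the sperm acrosome, had 36.8, 22 and 33.8 CPM in gland spots and no UMI in the stroma spots, at least 59.5-fold higher against 3 counts over all stroma spots. The keratin gene Krt83 had 56.1, 44 and 48.2 CPM against 0, 1.07 and 0 CPM, and Wfdc18 had 34.8, 33 and 50.6 CPM against 0, 0 and 0.784 CPM. Their ratios, each on 2 UMIs in the stroma spots, were 138 and 117, with exact Poisson intervals of 38.2 to 1138 and 32.3 to 964. Gpx2, a glutathione peroxidase of epithelia, had 48.4, 77 and 61.5 CPM against 1.77, 0.537 and 0.392 CPM (6.30 ± 0.43). Spink1 had 7267, 4309 and 10289 CPM against 109.6, 51.6 and 289 CPM (5.83 ± 0.15). Gland spots were higher in every library for these genes and none overlapped.

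Against stroma spots both epithelial markers were called. Krt18 had 94.8, 140.3 and 116 CPM in gland spots and 9.72, 26.3 and 37.2 CPM in stroma spots (2.22 ± 0.20, edgeR adjusted p = 5.8e-15). Epcam had 27.1, 85.3 and 36.2 CPM against 10.6, 21 and 12.9 CPM (1.72 ± 0.26, edgeR adjusted p = 2.9e-07). Neither overlapped between groups. In the lower-protease gland spots alone, Epcam had 4.96 CPM for replicates 1 and 2 and 15.5 CPM in replicate 4. Krt18 had 27.3 and 39.4 CPM there. Without matching depth, 2.38%, 35.7% and 14.3% of these spots held an Epcam UMI, against 6.02%, 17.1% and 18.6% of stroma spots. For Krt18 the shares were 9.52%, 35.7% and 30.2% against 5.42%, 22.9% and 28.4%. The difference between lower-protease and stroma spots was not tested. All 5 tested MHC class II genes were higher in gland spots, among them H2-Ab1 at 201, 146 and 171 CPM against 61, 42.5 and 50.9 CPM (1.80 ± 0.15). No stromal matrix gene of 18 was called, and 10 of 13 smooth muscle genes outside the rule were higher. The LIF co-receptor genes Lifr (1.29 ± 0.30) and Il6st (1.07 ± 0.14) were the genes called of 7 tested on their list, and both fell short of a call without the library of replicates 1 and 2 (0.95 and 0.93). The proliferation list had 6 of 14 genes lower, among them Cdk1 (-1.04 ± 0.22), which was not called without replicate 4 (-0.60, edgeR adjusted p = 0.18).

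The largest falls against stroma were smaller than the rises. Bdnf, a neurotrophin gene, had 5.8, 2.75 and 3.62 CPM in gland spots and 32.7, 32.2 and 16.8 CPM in stroma spots (-2.53 ± 0.45, edgeR adjusted p = 8.8e-06), without overlap. The helicase gene Dhx29 (-2.01 ± 0.54), the centromere genes Cenpe (-1.97 ± 0.59) and Cenpn (-1.87 ± 0.51) and Lrrtm1 (-1.86 ± 0.45) rested on 5 to 9 UMIs in gland spots. Cenpe was not called without replicate 3 (-1.67, edgeR adjusted p = 0.068) and Lrrtm1 not without the library of replicates 1 and 2 (-1.51, edgeR adjusted p = 0.051). Adult globins were higher in gland spots than in stroma spots in 4 of 4 tested genes, and Hbb-bs had 385, 388 and 2857 CPM against 233, 228 and 381 CPM (1.65 ± 0.18). Hba-a1, Hba-a2 and Hbb-bt overlapped between groups, and replicate 4 had the highest globin level. Without replicate 4 none of the 4 was called (Hbb-bs 0.78, Hba-a1 0.88, Hba-a2 0.52 and Hbb-bt 0.70). Against the depth-matched spots 4 of 5 globin genes were lower in gland spots, and against all other kept spots none of 5 was called.

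Within the gland spots, the strict core was compared with the lower-protease spots. Replicate 3 had 5 core spots, fewer than the 10 needed for a sum, so the fit used the library of replicates 1 and 2 and replicate 4, and its p-values rest on 4 sums. Of 3776 genes tested, 96 were higher in the core (2.54%) and 33 were lower (0.874%). Core spots had medians of 656, 300.2 and 306 CPM of the 5 muscle genes, against 5344, 3829 and 10548 CPM in the lower-protease spots of the libraries of replicates 1 and 2, 3 and 4. The part of muscle tissue in the differences was not tested.

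Keratin, water channel and apical membrane genes were among the largest rises in the core. Krt23, an epithelial keratin, had 173 and 232 CPM in the core and 2.48 and 5.63 CPM in the lower-protease spots (5.51 ± 0.46, edgeR adjusted p = 9.5e-06). Aqp5 had 156 and 531 CPM against 7.44 and 12.7 CPM (5.16 ± 0.38), and Prom1 had 581 and 1154 CPM against 32.2 and 31 CPM (4.84 ± 0.33). In the 5 core spots of replicate 3, Aqp5 had 209 CPM and Prom1 had 799 CPM. Each core value was above each lower-protease value. Car12 (4.88 ± 0.38), Wfdc18 (4.66 ± 0.42) and Fcgbp, a mucus protein gene (4.64 ± 0.63), were also among the largest rises. Grb7, Sv2b, Rnf128 and Slc5a8 had 1 to 3 UMIs in the lower-protease spots, with ratios of 66.1 (exact Poisson interval 11.9 to 2611), 66.1 (11.9 to 2611), 42.5 (14.5 to 206) and 37.8 (12.9 to 183).

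Gland genes rose again inside the members. Spink1 had 21887 and 51101 CPM in the core and 3056 and 3349 CPM in the lower-protease spots (3.44 ± 0.24), with 21848 CPM in the core spots of replicate 3. Cldn10 had 477 and 1071 CPM against 39.7 and 43.6 CPM (4.25 ± 0.32), with 837 CPM in replicate 3. Epcam had 104 and 158 CPM against 4.96 and 15.5 CPM (3.62 ± 0.47), with 304 CPM in replicate 3. All core values lay above the lower-protease values. By list, 4 of 6 gland genes, 5 of 7 keratins and adhesion genes, 7 of 10 membrane proteases and inhibitors and 5 of 8 transport genes were higher and none was lower. Of 4 epithelial regulators Sox9 was higher, while Sox17 (2.10 ± 0.63, edgeR adjusted p = 0.11), Klf5 (-0.31 ± 0.40) and Emx2 (-0.15 ± 0.50) were not called. Klf5 was also the tested gene of the luminal epithelium list, and 2 of 15 secretory pathway genes were higher. Krt18 rose by 3.79 ± 0.29 and Krt7 by 3.6 ± 0.43 on the log2 scale. Without the core, 8 of 14 gland genes and 7 of 16 proteases and inhibitors were still higher in the gland spots than in other kept spots (7.28% of all genes), but 1 of 15 keratins and adhesion genes was. Of the same 15 genes 3 were lower (Krt19, Krt8 and Krt18), as were 2 of the 14 gland genes (Il17rb and Ttr). Over all genes 5.86% were lower.

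C3 and the tested stroma and immune genes were not called in the core. C3 had 459 and 307 CPM in the core and 407 and 583 CPM in the lower-protease spots (-0.32 ± 0.29, edgeR adjusted p = 0.68). None of 18 stromal matrix, 6 macrophage, 4 MHC class II and 9 undecidualized stroma genes was called. Over all genes 2.54% were higher and 0.874% lower, so lists this short can hold no call without differing from other genes. The secretory chaperone regulator Xbp1 was not called (0.96 ± 0.26, edgeR adjusted p = 0.063), while Sec11c, a subunit of the signal peptidase, was higher (1.65 ± 0.29). Lyz2, the lysozyme gene of macrophages, was not called (0.56 ± 0.22).

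The 33 genes lower in the core included globin, smooth muscle and decidua genes. The globin gene Hba-a1 had 34.7 and 49.8 CPM in the core and 127 and 2062 CPM in the lower-protease spots (-4.45 ± 0.53), and Hbb-bs had 86.7 and 125 CPM against 469 and 3315 CPM (-3.88 ± 0.40). Hba-a2 had 3 UMIs in the core, a ratio of 30.4 (exact Poisson interval 10.4 to 148), and its reads may be shared with its near-identical copy Hba-a1. Much of the globin RNA lay in few spots of replicate 4. Its 73 gland spots had a median of 186 CPM of the globin list, 19 of them were at 0 and the highest reached 245550 CPM. In that library spots of 1000 to 5000 protease CPM under the muscle ceiling had 9980 CPM of the globin list. Ptges, a prostaglandin E synthase gene, had 34.7 and 16.6 CPM against 213 and 124 CPM (-2.66 ± 0.45), and the muscle junction gene Jph2 fell by 2.35 ± 0.56 on the log2 scale. Of the smooth muscle genes outside the rule 6 of 13 were lower, as were 4 of 16 decidua genes (Rrm2, Dio3, Gatm and Erv3). With DESeq2 size factors the genes lower in the core numbered 13, and with no replicate block 7.

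**Figure D4:**
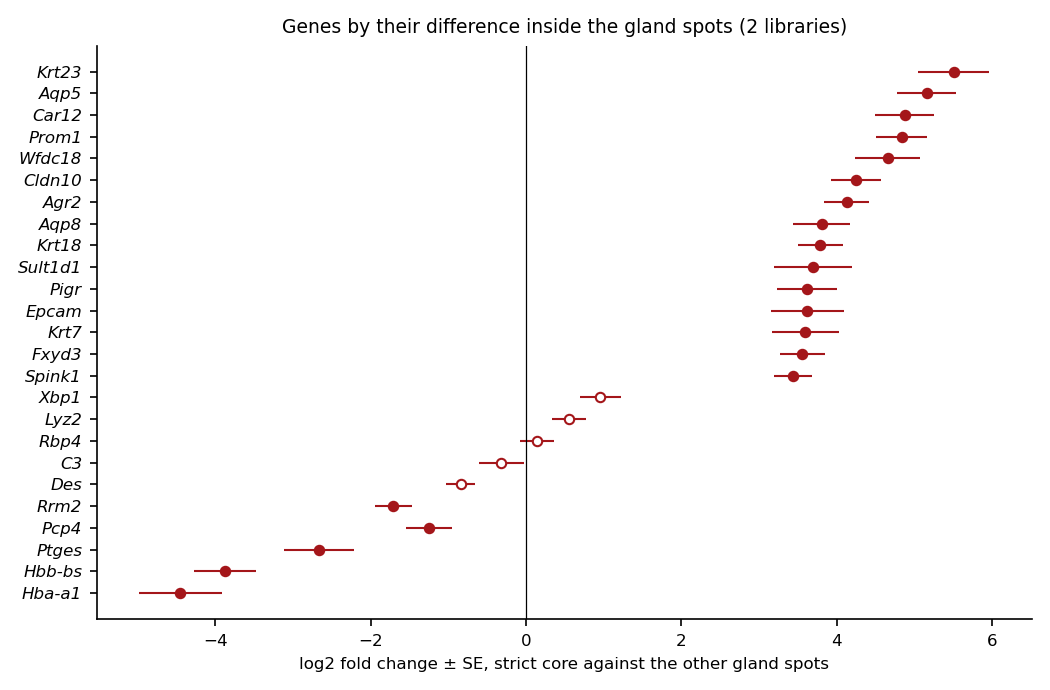
Log2 fold changes with standard errors of genes in the strict core against the lower-protease gland spots, from summed UMIs of 2 libraries. Filled points were called and open points were not. Epithelial and gland genes lie at 3.44 to 5.51, C3, Rbp4 and Lyz2 lie near 0, and muscle, prostaglandin and globin genes lie below 0.

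Genes took different courses over spots ordered by protease level. Kept spots under the muscle ceiling were placed in 6 bins of protease CPM, and the CPM of each gene were taken from summed UMIs per bin. In replicate 4, Spink1 had 61.1, 86.6, 225, 1820, 5854 and 51101 CPM from the bin without protease UMIs to the bin of 20000 CPM and over. Spink1 increased at each of these steps, and so did Clu, with 109, 169, 339.9, 741, 1426 and 11175 CPM. Krt18 in the same bins had 141, 118, 11.2, 18.1, 74.3 and 565 CPM, lowest at intermediate protease levels and highest in the core. Cldn10 had 38.6, 71, 85.8, 38.5, 52 and 1071 CPM, and Epcam had 15.2, 10.6, 12.8, 11.3, 22.3 and 158 CPM. Below 20000 CPM of the proteases they stayed between 38.5 and 85.8 CPM and between 10.6 and 22.3 CPM.

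The same bins are given for the other libraries. In the library of replicates 1 and 2, Spink1 had 29.3, 23.1, 182, 1152, 4819 and 21887 CPM, and Epcam had 6.12, 1.77, 5.6, 4.74, 4.76 and 104 CPM. Replicate 3 had 4 spots between 5000 and 20000 CPM of the proteases, too few for a value, and its other bins had 2.75, 21.7, 179, 908 and 21848 CPM of Spink1 and 11.4, 16.3, 10.3, 52.7 and 304 CPM of Epcam. Epcam was thus already higher between 1000 and 5000 CPM of the proteases in replicate 3, where 35.7% of the lower-protease gland spots held a UMI of it against 18.1% of the other kept spots. C3 followed neither course. In the library of replicates 1 and 2 it had 46.1, 53.2, 160.3, 369.8, 457 and 459 CPM, flat over the 2 highest bins, and in replicate 4 it fell from 591 to 307 CPM between them. Nppa likewise was highest in the bin below the core in replicate 4, at 316 CPM against 116 CPM in the core.

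**Figure D5:**
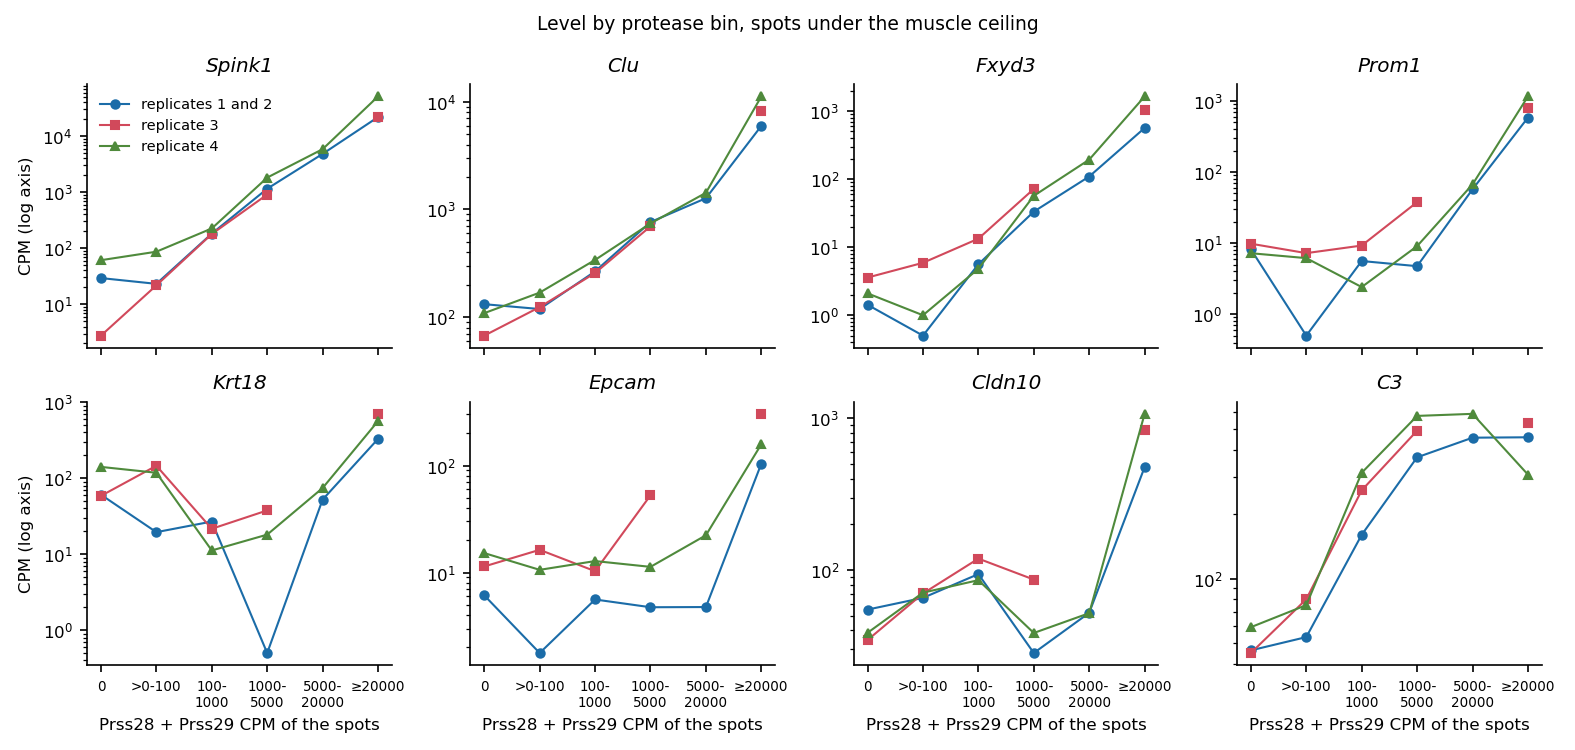
CPM on a logarithmic axis of 8 genes in bins of Prss28 and Prss29 CPM, from UMIs summed over the spots of each bin and library, with values of 0 drawn at 0.5 and no value for bins under 5 spots. Spink1, Clu and Fxyd3 increase over the upper bins in every library, Krt18, Epcam and Cldn10 have their highest values in the last bin, with Epcam in replicate 3 already higher in its 1000 to 5000 bin, and C3 levels off or falls.

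Across individual gland spots, Spink1 had the highest rank correlation with the proteases of the genes computed in each library. Spearman's rho between its CPM and the protease CPM was 0.847 over 105 spots of replicates 1 and 2, 0.747 over 33 in replicate 3 and 0.801 over 73 in replicate 4. For Clu it was 0.61, 0.635 and 0.587, for Krt18 0.479, 0.477 and 0.532, for C3 0.141, 0.0401 and -0.121 and for Col1a1 0.156, 0.228 and 0.0559. Spots of a library share its preparation and differ in depth, and Krt18 had a UMI in 19, 15 and 29 of these spots, so the values describe these spots only.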

How the data were processed

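Spot by gene counts of 3 Visium libraries were analysed. The authors deposited UMI counts per gene and spot, not normalized, and the software was Space Ranger 1.2.2 per the file headers. Cell Ranger and the build mm10 are named in the submitters' processing notes. Other settings, strand handling included, were not given in the sources used here. Spot positions and images were not used here. Spots under 1000 UMIs were left out (38, 1 and 0 per library). Members, gene lists and tests were chosen with earlier results of these data known. Doublet calling does not apply to spots. Results of a few genes are not reported here.

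Counts were summed per library and class without the 7 rule genes (also without Sfrp4 and Rbp4 against stroma) and tested with edgeR 4.0.16 (R 4.3.3) by the quasi-likelihood test, with TMM scaling, filterByExpr, the library as a block and Benjamini-Hochberg adjustment over all genes tested. Calls required adjusted p below 0.05 with log2 fold change 1 or more in either direction. The block follows from the design, since both sums of a pair come from the same library. In counts simulated for gland spots against other kept spots over 13111 genes, 90% of 100 genes changed 2-fold and 100% of 100 changed 4-fold passed the adjusted p, against 0.0775% of 12911 unchanged genes. The simulation used the same fixed dispersion for all genes and the same means in all libraries. Its changed genes came only from those with many expected UMIs in every sum. These shares therefore do not carry over to genes with few UMIs or to differences between libraries. Named genes were the 20 largest rises and 8 largest falls against other kept spots, and the 10 and 5 largest in the other comparisons, with the same direction in each library and mean log2 CPM not under 3. The rule passed over symbols that start with Gm, BC, AC or AA and a digit or end in Rik. To these came the epithelial markers Epcam and Krt18, the tested gland genes and up to 4 genes with the smallest p of each list with a call. Alternatives changed the size factors, test (DESeq2 1.42.0), filter, block, libraries, spot rules and reference. Promoter sequences came from RefSeq (GRCm38.p6), gene positions from GENCODE M21 and other computations from Python 3.11.15.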

Additional observations from a re-analysis of the deposited data

How the results depend on the processing

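Against other kept spots, 1188 genes were higher and 858 lower. DESeq2 gave 551 lower, no minimum fold change gave 1978 lower, and the depth-matched spots gave 91 higher and 47 lower. Leaving out each library gave 653 to 1184 higher and 520 to 978 lower, with the smallest counts without replicate 4. For the core, 33 genes were lower as reported, 13 with DESeq2 size factors, 4 with DESeq2 (53 higher), 92 with no filter on low counts and 7 with a core threshold of 10000 CPM. Against stroma spots DESeq2 gave 206 higher and 18 lower, no filter 217 lower, no minimum fold change 868 higher and 614 lower, and stroma spots from the top 20% 626 higher and 222 lower, while leaving out each library gave 248 (without replicate 4), 430 and 476 higher and 72 to 127 lower. The causes were not tested. With no replicate block, 1122 and 704 genes were higher and lower against other kept spots, 79 and 7 in the core and 266 and 40 against stroma. Leaving out a library in the core comparison leaves no residual degrees of freedom and was not run.

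Of 2655 values of 152 named genes against other kept spots, 2476 kept direction and call, 112 lost the call, 53 gained it and 14 reversed. The reversed values reported here were Lcn2 (-1.49) and Igha (-0.21) without replicate 3 (2.11 and 5.24 without replicate 4), Krt18 (-1.18) and Krt7 (-0.10) without the core, and, against the depth-matched spots, Hand2 (0.12), Tppp3 (-0.44), Rrm2 (0.21), Myl9 (-0.37), Lmod1 (-0.17), Smtn (-0.31), Cdh5 (0.05), Cryab (0.06) and Fabp4 (0.49). None of 793 values against stroma and of 300 in the core comparison reversed. Foxa2, Pax8 and Ehf rest on 7 to 15 UMIs in gland spots, which limits their precision.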

Other observations

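Gland spots also differed from the other kept spots in Wnt and immune genes that the comparisons above did not describe. Over all genes 8.91% were higher and 6.44% lower there. Against other kept spots 3 of 13 tested Wnt and Hedgehog genes were higher (Sfrp4, Sfrp1 and Fzd6) and 3 were lower (Wnt6, Wnt5a and Lef1), and against the depth-matched spots Sfrp4 was higher and Wnt6 and Wnt5a were lower of 6. On the interferon response list 3 of 12 were lower (Isg15, Ifit1 and Usp18), and none of 7 was called against the depth-matched spots. On the neutrophil list 2 of 3 tested genes were lower (S100a8 and S100a9) and Csf3r was not called (-0.14, edgeR adjusted p = 0.94), with the list at 339, 307 and 49.3 CPM in gland spots of the libraries of replicates 1 and 2, 3 and 4 and 818, 1330 and 1207 CPM elsewhere. S100a9 had nearly the same level in both groups of replicate 3, at 19.2 and 21.9 CPM. S100a8, the neutrophil gene tested against the depth-matched spots, was not called there (-0.13). Against the stroma spots 1 of 7 tested Wnt and Hedgehog genes was higher (Fzd6), with Sfrp4 left out of that fit. None of 8 interferon response and 2 neutrophil genes was called. The neutrophil list had 340.5, 308 and 49.4 CPM in gland spots and 104, 229 and 129 CPM in stroma spots. In that comparison 4.53% of all genes were higher and 1.13% lower, so lists this short can hold no call without differing from other genes.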
